A study of Mus musculus with 15 samples.

Results

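The 6 mouse genes described here encode receptors for the Fc part of immunoglobulins, or a chain these receptors need. They are Fcgr1, Fcgr3 and Fcgr4, which encode the activating IgG receptors, Fcgr2b, which encodes the inhibitory IgG receptor, Fcer1g, which encodes the common signalling chain, and Fcgrt, which encodes the neonatal receptor. They were taken by symbol from a table of 55335 genes, in which each of the 6 symbols was found, and all 6 genes passed the filter on low values. Activating Fc receptors bind antibody-coated targets and signal through the immunoreceptor tyrosine-based activation motif (ITAM) of the common chain, which leads macrophages to engulf the target and release mediators. The inhibitory receptor binds the same antibodies and signals through an inhibitory motif that recruits the phosphatase encoded by Inpp5d. The neonatal receptor works inside the cell, where it rescues IgG and albumin from degradation.

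Gene expression was measured by RNA-seq in tumor-associated macrophages (TAMs) sorted from orthotopic hepatocellular carcinoma (HCC) in C57BL/6 mice. The tumors came from Hepa1-6 cells, a mouse hepatoma line that had been made to express luciferase, infected with lentivirus and injected into the liver. The 3 groups, with 5 samples in each, were TAMs from tumors of control cells and of cells with miR-144 or miR-451a overexpression. The miRNAs were thus overexpressed in the tumor cells and not in the macrophages, and the comparisons ask how TAMs differed when the tumor cells carried more of either miRNA. The labels give neither the age nor the sex of the mice, and do not say whether each sample came from a separate mouse, so p-values measure only the spread between these samples. The study states a smaller n for its RNA-seq than the 5 samples per group in the table, and which samples that n covers is not given in the sources used here.

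Both miRNAs are encoded next to each other on chromosome 11. Their mature sequences are shown because they define the 2 overexpression groups, with the seed (bases 2 to 8) in capitals, as given by RefSeq for GRCm38.p6. The labels do not name an arm of miR-144, so both arms are given. The seeds of the 3 sequences differ.
mmu-miR-144-5p (chr11:78073010-78073032, plus strand): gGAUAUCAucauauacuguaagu
mmu-miR-144-3p (chr11:78073047-78073066, plus strand): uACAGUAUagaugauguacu
mmu-miR-451a (chr11:78073186-78073207, plus strand): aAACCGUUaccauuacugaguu

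The values are FPKM, fragments per kilobase of transcript, scaled to the mapped fragments of each sample, so levels can be compared between genes. The steps between low values implied a depth of 15.5 to 30.3 M fragments per sample, an approximate figure because 36.3% to 49.6% of low values lay on such a step (10% by chance). Groups were compared with limma on log2(FPKM + 1) over the 11419 genes whose mean reached 1 FPKM, and a gene was called at an adjusted p under 0.05. All 8 macrophage markers were detected in every group. Their summed level was 8773 to 9576 FPKM in control samples, 14637 to 16482 with miR-144 and 14335 to 15487 with miR-451a. Most of this rise was that of Lyz2, which averaged 6894, 13171 and 12581 FPKM in control, miR-144 and miR-451a TAMs, while Cd68 was lower in the miRNA groups, at 1444, 919 and 910 FPKM. Adgre1, which encodes the F4/80 antigen used for sorting, averaged 137 FPKM in control TAMs, 361 in the miR-144 group and 354 in the miR-451a group. The median gene was higher than in control by 0.13 (miR-144) and 0.14 (miR-451a) on the log2 scale. The calls therefore leaned upward, with 5376 genes higher against 2292 lower in the miR-144 comparison, and 5490 against 2314 in that of miR-451a. After median centring, which removes this shift, the splits were 3512 against 3511 and 3577 against 3636. In such sorted bulk samples, fewer cells that express a gene and less RNA of that gene per cell cannot be told apart.

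TAMs from both miRNA groups carried far more Fcgr1 and far less Fcgr2b than control TAMs. Fcer1g and Fcgrt were also higher, and Fcgr3 was lower. Fcgr4 stayed within a narrow range. In miR-144 against control, 6 of 6 genes were called, 4 higher and 2 lower, where 67.2% of all tested genes were called (47.1% higher and 20.1% lower). In miR-451a against control, 5 of 6 were called, 3 higher and 2 lower, where 68.3% of all tested genes were called (48.1% higher and 20.3% lower). A change of at least 1 on the log2 scale was rarer. It was met by Fcgr1, Fcgrt and Fcgr2b, 3 of 6 genes, in each comparison, against 7.78% of all genes for miR-144 (4.62% higher, 3.16% lower) and 8.27% for miR-451a (4.93% higher, 3.34% lower). Every miRNA sample lay outside the control range for 5 of 6 genes in each comparison, 3 higher and 2 lower, with Fcgr4 the exception. Over all genes this held for 53.9% with miR-144 (37.9% higher, 16% lower) and 55.2% with miR-451a (38.8% higher, 16.4% lower). Both comparisons use the same 5 control samples, so their values are given side by side and not as separate support for each other.

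**Figure D1:**
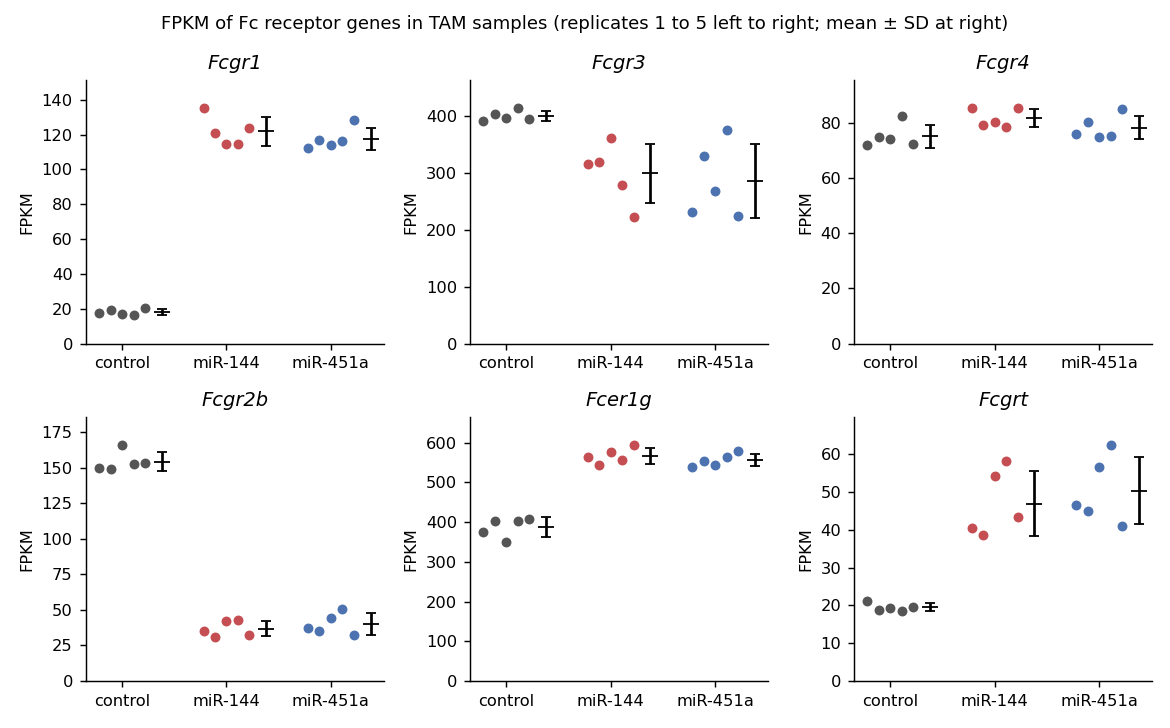
FPKM of the 6 Fc receptor genes in each sample, with replicates 1 to 5 from left to right in each group and the mean ± SD (n = 5) at the right of the points; each panel has its own linear axis from 0. Fcgr1 lies between 16.6 and 20.4 FPKM in control samples and above 112 in all others, Fcgr2b shows the opposite order, and the 3 groups overlap for Fcgr4.

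Fcgr1 encodes the high-affinity IgG receptor, the activating receptor that can bind single IgG molecules. In the GENCODE M21 annotation (GRCm38), this gene (ENSMUSG00000015947, minus strand) spans chr3:96282909-96293969. Its FPKM in control samples 1 to 5 was 17.3, 19.0, 16.7, 16.6 and 20.4. In the miR-144 samples it was 135, 121, 115, 115 and 124, and in the miR-451a samples 113, 117, 114, 116 and 129. Every sample of both miRNA groups thus lay more than 5 times above the highest control sample. The mean rose from 18.0 ± 1.67 (SD, n = 5) 6.77-fold under miR-144, to 122 ± 8.46 (SD, n = 5), and 6.53-fold under miR-451a, to 118 ± 6.39 (SD, n = 5). Log2 fold changes of 2.69 and 2.64 were estimated (SE 0.06 for each, limma adjusted p = 1.67e-14 and 1.90e-14). Fcgr1 had the largest change of the 6 genes in both comparisons.

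Fcgr3 encodes a low-affinity activating receptor for IgG complexes and was the most abundant IgG receptor transcript in every sample. Its gene (ENSMUSG00000059498, minus strand) spans chr1:171051174-171064935. FPKM of Fcgr3 was 392, 405, 397, 415 and 395 in control samples 1 to 5. The miR-144 samples had 317, 319, 362, 280 and 223, and the miR-451a samples 232, 331, 268, 377 and 224. All values in the miRNA groups were below the lowest control value, but they were spread over a wide range, and replicate 5 was the lowest in both groups. From a mean of 401 ± 9.17 (SD, n = 5) the level fell 1.34-fold, to 300.0 ± 52.1 (SD, n = 5), and 1.40-fold, to 286 ± 65.9 (SD, n = 5). On the log2 scale these were changes of -0.43 and -0.51 (SE 0.14 each, limma adjusted p = 0.0132 and 0.00461). Fcgr3 thus fell while Fcgr1, another activating receptor, rose.

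Fcgr4 encodes an activating receptor of intermediate affinity for IgG2 antibodies, found on mouse monocytes, macrophages and neutrophils. Its gene (ENSMUSG00000059089, plus strand) spans chr1:171018920-171029761. FPKM was 71.9, 74.7, 74.0, 82.2 and 72.3 in control samples, 85.3, 79.2, 80.1, 78.5 and 85.2 with miR-144 and 76.0, 80.1, 74.9, 75.1 and 84.7 with miR-451a. Samples overlapped in each comparison. The mean of 75.0 ± 4.18 (SD, n = 5) in control TAMs compared with 81.7 ± 3.33 (SD, n = 5) and 78.2 ± 4.21 (SD, n = 5). The log2 fold change was 0.12 with miR-144 (SE 0.04, limma adjusted p = 0.0253) and 0.06 with miR-451a (adjusted p = 0.255). The 0.12 of the miR-144 group was no larger than the 0.13 by which the median gene was higher. After median centring it was -0.012 (adjusted p = 0.837). The call was also lost when control replicate 1 (adjusted p = 0.0627) or 5 (0.0601), or miR-144 replicate 1 (0.0622) or 5 (0.0631), was left out.

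Fcgr2b encodes the inhibitory receptor, which dampens signalling when it is bound together with an activating receptor. Its gene (ENSMUSG00000026656, minus strand) spans chr1:170958617-170976547. Control samples had 150, 149, 166, 152 and 154 FPKM. The miR-144 samples had 35.2, 31.0, 42.2, 43.0 and 32.6, and the miR-451a samples 37.5, 35.2, 44.0, 50.9 and 32.4. The highest value in either miRNA group, 50.9, was well below the lowest control value, 149. The mean fell from 154 ± 6.74 (SD, n = 5) 4.19-fold under miR-144, to 36.8 ± 5.52 (SD, n = 5), and 3.85-fold under miR-451a, to 40.0 ± 7.46 (SD, n = 5). This gave log2 fold changes of -2.05 and -1.94 (SE 0.11 each, limma adjusted p = 4.06e-10 and 7.38e-10).

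B cells and liver sinusoidal endothelial cells are also known to express Fcgr2b, and a few of their markers, but not others, fell with it. The 8 markers of B cells and plasma cells summed to 80.2 to 101 FPKM in control samples, 16.7 to 19.4 with miR-144 and 15.6 to 18.2 with miR-451a. Most of this sum was Sdc1, which averaged 77.3 FPKM in control TAMs, 13.0 with miR-144 and 11.9 with miR-451a. Ms4a1 and Pax5, which help define B cells, reached at most 0.0138 and 0.0222 FPKM in any sample. The 9 endothelial markers summed to 12.5 to 14.4 FPKM in control samples, 6.12 to 7.28 with miR-144 and 6.60 to 7.48 with miR-451a. The fall of this sum came from Oit3 (9.30, 1.16 and 0.892 FPKM on average). Kdr rose instead, from 2.80 FPKM on average to 3.84 and 4.07 (limma adjusted p = 0.00272 and 0.000807), while Clec4g was at 0 in all 15 samples and Lyve1 reached at most 0.0148 FPKM. The part of such cells in the fall of Fcgr2b was not tested beyond these levels.

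Fcgr2b and Fcgr3 lie on chromosome 1 with Fcgr4 between them, and have nearly the same sequence over part of their length. Their coding sequences were 90.1% identical over 755 aligned bases, and 99% identical over a block of 300 bases, within which the longest run without a difference had 129 bases. Of all 50-base stretches of the longest transcript, 4.75% in Fcgr2b and 12.8% in Fcgr3 occur in the other gene of the pair. In Fcgr2b, 11.4% occur in at least 1 of 47 other genes, Fcgr3 among them, and for the remaining 4 receptors the share with any other gene is 0%. The 30 bases around the end of the longest identical run are shown because within them the genes differ only by the base in capitals. The difference is T407G, with the Fcgr2b base first and the position counted from 1 at the first base of the Fcgr2b coding sequence (GENCODE M21).
Fcgr2b (Fcgr2b-204, coding bases 392 to 421): tccagacccctcagcTggtgtttctggaag
Fcgr3 (Fcgr3-201, coding bases 377 to 406): tccagacccctcagcGggtgtttctggaag

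Since fragments from the shared stretch could be split between both genes, their sum was compared as well. A sum of fragments would not depend on how they were divided. The sum of FPKM does in part, because a fragment adds less FPKM to the gene with the longer transcript. The longest transcripts have 3544 bases (Fcgr2b) and 1347 bases (Fcgr3). The summed FPKM was 542 to 567 in control samples, 255 to 404 with miR-144 and 257 to 428 with miR-451a. On average it was 555 ± 10.1 (SD, n = 5), 337 ± 54.2 (SD, n = 5) and 326 ± 71.1 (SD, n = 5), with every sample of both miRNA groups below every control sample. The log2 difference from control was -0.73 (miR-144) and -0.79 (miR-451a) (two-sided exact permutation test, p = 0.00794 for each, the smallest p that the 252 splits of 5 against 5 samples allow).

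Fcer1g encodes the common chain, which carries the ITAM and is needed for surface expression and signalling of the activating receptors. Its gene (ENSMUSG00000058715, minus strand) spans chr1:171229572-171234365. FPKM was 375, 404, 350, 402 and 408 in control samples, 565, 543, 576, 556 and 593 with miR-144 and 540, 555, 544, 564 and 579 with miR-451a. Both miRNA groups lay above all control samples, and their samples lay close together. The mean rose from 388 ± 24.9 (SD, n = 5) to 567 ± 19.2 (SD, n = 5), 1.46-fold, and to 556 ± 15.8 (SD, n = 5), 1.43-fold. The estimated log2 changes were 0.55 and 0.52 (SE 0.04 each, limma adjusted p = 2.16e-08 and 3.67e-08). After median centring they were 0.41 and 0.38.

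Fcgrt encodes the heavy chain of the neonatal receptor, which pairs with the light chain encoded by B2m. Its gene (ENSMUSG00000003420, minus strand) spans chr7:45092990-45103851. Control samples had 21.2, 18.9, 19.3, 18.4 and 19.7 FPKM. The miR-144 samples had 40.5, 38.7, 54.2, 58.3 and 43.4, and the miR-451a samples 46.7, 44.9, 56.8, 62.4 and 41.0. All 10 of these samples lay above all control samples, and replicates 3 and 4 were the highest in both miRNA groups. The mean rose from 19.5 ± 1.04 (SD, n = 5) to 47.0 ± 8.70 (SD, n = 5), 2.41-fold, and to 50.4 ± 8.90 (SD, n = 5), 2.58-fold. The rise on the log2 scale was 1.21 and 1.31 (SE 0.12 each, limma adjusted p = 4.27e-07 and 1.66e-07). B2m, by contrast, averaged 2913, 2263 and 2215 FPKM in control, miR-144 and miR-451a TAMs (log2 fold changes -0.37 and -0.39, limma adjusted p = 3.12e-05 and 1.35e-05), a fall that was not called under quantile normalization. The light chain remained far more abundant than Fcgrt in every group. Alb, the gene of the other ligand of the receptor, was at 0 in all samples.

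**Figure D2:**
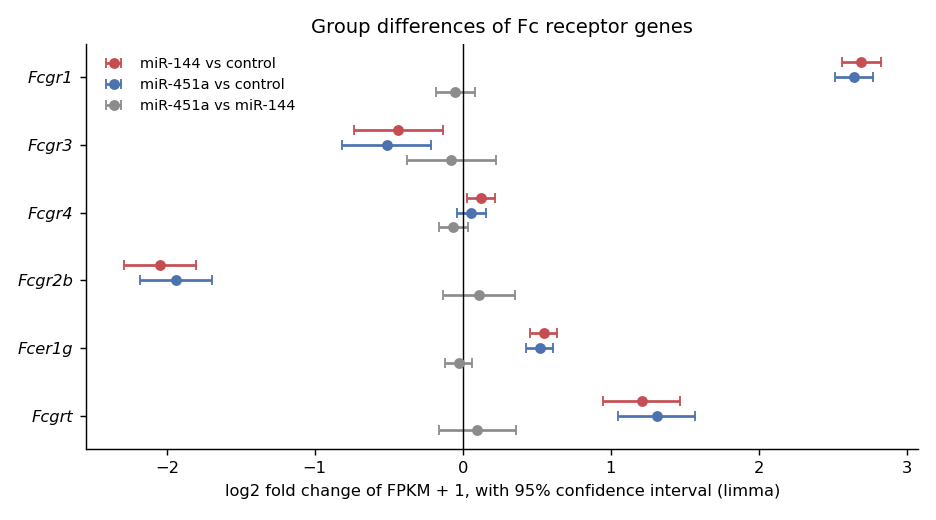
Log2 fold change of FPKM + 1 for each Fc receptor gene in the 3 comparisons, with points for the limma estimate and bars for its 95% confidence interval. Estimates for miR-144 and miR-451a against control lie side by side for each gene, from about -2 for Fcgr2b to 2.69 for Fcgr1, and every interval of miR-451a against miR-144 includes 0.

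The ranking of the 6 transcripts changed accordingly. In control TAMs Fcgr3 (392 to 415 FPKM) and Fcer1g (350 to 408) were highest and overlapped, followed by Fcgr2b and Fcgr4. Fcgrt (18.4 to 21.2) and Fcgr1 (16.6 to 20.4) were lowest and overlapped. In both miRNA groups the order by mean was Fcer1g, Fcgr3, Fcgr1, Fcgr4, Fcgrt and Fcgr2b. Only Fcgrt and Fcgr2b overlapped between neighbours there, with 38.7 to 58.3 against 31.0 to 43.0 FPKM for miR-144 and 41.0 to 62.4 against 32.4 to 50.9 for miR-451a. Fcgr1 thus moved from the lowest place to the third, and Fcgr2b from the third to the lowest.

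Within the 4 IgG receptor transcripts, the makeup shifted more than the total. Summed over the 4 genes, control TAMs had 648 ± 12.9 FPKM (SD, n = 5), miR-144 TAMs 540 ± 52.2 (SD, n = 5) and miR-451a TAMs 522 ± 67.8 (SD, n = 5). Fcgr1 made up 2.78% of it in control TAMs, 22.7% with miR-144 and 22.9% with miR-451a. Fcgr2b held 23.8%, 6.84% and 7.67%. Fcgr3 held the largest share throughout, at 61.9%, 55.2% and 54.3%, and Fcgr4 held 11.6%, 15.2% and 15.2%. The activating receptors together summed to 494 ± 12.7, 504 ± 50.7 and 482 ± 63.1 FPKM (SD, n = 5 each), so that these sums overlapped, while the shares of Fcgr1 and Fcgr2b did not overlap control. The ratio of that sum to Fcgr2b was 2.94 to 3.37 in control samples (mean 3.21), 11.0 to 16.8 with miR-144 (mean 13.9) and 10.4 to 15 with miR-451a (mean 12.3). On the log2 scale this was a difference of 2.10 and 1.92 from control. Without Fcgr1 in the sum, the differences were 1.75 and 1.56, and without Fcgr3 they were 3.21 and 3.04. FPKM of Fcer1g relative to the activating sum averaged 0.785, 1.14 and 1.17 in control, miR-144 and miR-451a TAMs. These shares and ratios are descriptions without a test, and the ratio takes Fcgr2b, which shares sequence with Fcgr3, as its denominator.

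**Figure D3:**
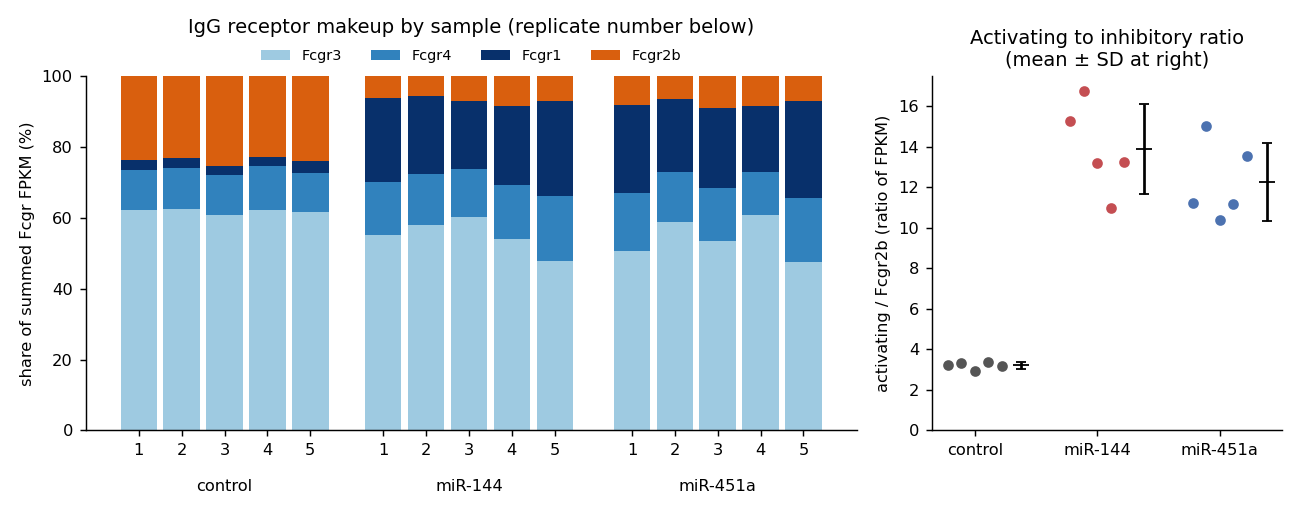
Left, share (%) of Fcgr3, Fcgr4, Fcgr1 and Fcgr2b in their summed FPKM for each sample, stacked to 100%, with the replicate number under each bar. Right, ratio of Fcgr1 + Fcgr3 + Fcgr4 to Fcgr2b per sample with mean ± SD (n = 5), which runs from 2.94 to 3.37 in control samples and from 10.4 to 16.8 in all others.

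The miRNA groups were also compared directly. None of the 6 genes was called in miR-451a against miR-144, where 0% of all tested genes were called by limma (smallest adjusted p over all genes 0.0752, 596 genes at an unadjusted p under 0.05). The smallest unadjusted p of the 6 receptors was 0.180, that of Fcgr4, and their limma adjusted p was 0.981 or more. The groups overlapped for each of the 6 genes, and 0.849% of all genes did not overlap. The 95% confidence interval of the log2 difference was -0.18 to 0.08 for Fcgr1, -0.13 to 0.35 for Fcgr2b and -0.12 to 0.06 for Fcer1g. For Fcgr3, Fcgrt and Fcgr4 it was -0.38 to 0.22, -0.16 to 0.36 and -0.16 to 0.03. Differences up to these bounds in either direction remain compatible with the data. The sum of Fcgr2b and Fcgr3 differed by -0.06 on the log2 scale (exact permutation test, two-sided p = 0.786).

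The receptors also differed in how far samples of a group were spread. The coefficient of variation of Fcgr3 was 2.29% in control TAMs, 17.3% with miR-144 and 23.0% with miR-451a. Fcgr2b had 4.38%, 15% and 18.7%, and Fcgrt 5.34%, 18.5% and 17.7%. Genes with a mean within 2-fold of each of these receptors had a median of 4.84% to 5.47%, and in the miRNA groups 90.8% to 94.8% of them varied less than the receptor did. The coefficients of Fcgr1, Fcgr4 and Fcer1g were 2.84% to 6.94% in the miRNA groups. Replicates 3 and 4 held the highest Fcgr2b and Fcgrt of both miRNA groups. They also held the highest Fcrls, Fcrl1, Clec4n and Cd4, so the pattern is not particular to markers of 1 cell type. Cd5l, a marker of liver-resident Kupffer cells, was highest in the same samples, at 19.7, 19.3, 44.9, 48.9 and 16.4 FPKM in miR-144 samples 1 to 5 and 18.3, 17.6, 38.4, 46.1 and 15.3 in miR-451a samples, against 3.21 to 3.65 in control samples. The 6 Kupffer markers summed to 4.19 to 4.70 FPKM in control samples, 22 to 56.4 with miR-144 and 20.7 to 54.9 with miR-451a. Of these markers, 4 stayed under 1 FPKM in all 15 samples and Clec4f was at 0. The 6 monocyte markers summed to 2.61 to 3.16, 9.15 to 23.6 and 11.4 to 18.6 FPKM. Spn, the highest of them on average, was instead lowest in replicates 3 and 4. It had 7.35, 7.15, 4.01, 4.32 and 8.99 FPKM in miR-144 samples 1 to 5 and 7.46, 9.26, 4.80, 4.30 and 10.4 in miR-451a samples. The part of these cell types in the spread was not tested.

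**Figure D4:**
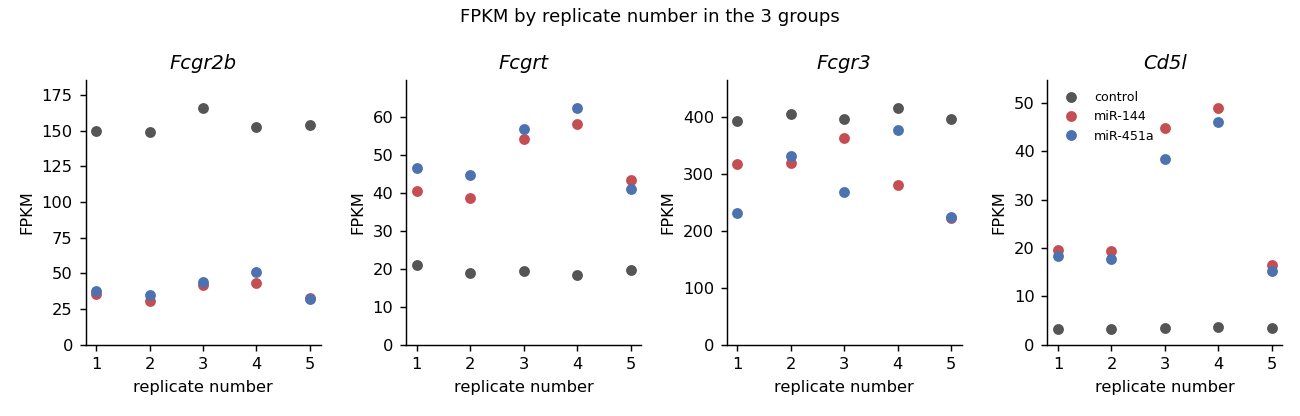
FPKM of Fcgr2b, Fcgrt, Fcgr3 and the Kupffer-cell marker Cd5l by replicate number, with 1 point for each sample and colours for the 3 groups; axes are linear from 0 and the numbers are not known to pair mice. In the miR-144 and miR-451a groups replicates 3 and 4 are highest for Fcgr2b, Fcgrt and Cd5l, and replicate 5 is lowest for Fcgr3, while control samples lie close together.

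Markers of other cells that carry Fc receptors were low. Neutrophils express Fcgr3, Fcgr4 and Fcer1g, and 8 of 10 neutrophil markers stayed under 1 FPKM in all samples, with Ly6g at 0.0590 or less. The sum of these markers was 13.1 to 18.8 FPKM in control samples, 3.79 to 5.76 with miR-144 and 4.87 to 7.24 with miR-451a, most of it Mmp8. NK cells express Fcgr3 and Fcer1g, and all 8 NK-cell markers were under 1 FPKM in every sample, with Ncr1 at 0. Of the 9 markers of mast cells and basophils, 8 were under 1 FPKM in every sample, and Fcer1a, the IgE-binding chain that pairs with Fcer1g in those cells, was at 0. All 7 dendritic-cell markers and all 9 hepatocyte and hepatoma markers were under 1 FPKM, and 7 of the latter were at 0 in all samples. Of 8 T-cell markers 7 were under 1 FPKM, the exception being Cd4 at 1.32, 6.86 and 7.16 FPKM on average.

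Sequences before the start of the receptor genes were searched on both strands for 4 short motifs of factors known to act in macrophages, from 250 bases before to 50 bases after each start in RefSeq (GRCm38.p6). All 6 genes were found in that table. The interferon-gamma-activated site TTCNNNGAA, bound by STAT factors, occurs in 8.30% of 32851 promoters, and among the receptors in Fcgr1 alone. The core of the interferon-stimulated response element, GAAANNGAAA, occurs in 3.44% of promoters and was found in Fcgr4 alone. The PU.1 core GAGGAA occurs in 28.3% of promoters and was found on the reverse strand, as TTCCTC, in Fcgr1, Fcgr3 and Fcgr4, the activating receptors. The motif TTCNNNNGAA, of the type STAT6 binds, occurs in 6.95% of promoters and in none of the 6. Fcgr2b, Fcer1g and Fcgrt held none of the 4 motifs in this window. The stretches around the interferon-type matches are shown because Fcgr1 and Fcgr4 are activating receptors with very different changes, with the match in capitals. A match is a description of the letters, not of binding.
Fcgr1 (chr3:96294060-96294089, minus strand): taaggatgtatTTCCCAGAAaagggaacag
Fcgr4 (chr1:171018843-171018872, plus strand): ggtgtttctgGAAAAGGAAActggtgagat

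Other Fc receptors and their relatives were mostly absent. Of 14 such genes, 3 reached a mean of 1 FPKM over all samples and were tested. Fcrl1 passed only through the groups in which it was high, so its test is not given. The other two, Fcrls and Trim21, were called higher in both miRNA groups, where 47.1% (miR-144) and 48.1% (miR-451a) of all tested genes were. Fcrls, an Fc receptor-like gene of mouse macrophages and microglia, went from 4.39 to 6.16 FPKM in control samples to 80.3 to 109 with miR-144 and 87.2 to 142 with miR-451a (log2 fold changes 3.88 and 4.14, limma adjusted p = 9.32e-13 and 4.05e-13). Fcrl1, a relative known from B cells, averaged 0.215, 7.37 and 7.68 FPKM. Trim21, a receptor for antibodies inside the cell, averaged 4.07, 8.96 and 8.47 FPKM, with groups that overlapped (log2 fold changes 0.97 and 0.92, adjusted p = 0.00283 and 0.00413). Fcrlb was the highest of those below the filter and was not tested. Its FPKM was lower in the miRNA groups, at 0.963, 0.259 and 0.284 on average. Fcmr, Fcamr and Pigr, the receptors for IgM and polymeric immunoglobulin, were at 0 in all samples.

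Several lectin receptors and adaptors use or resemble the common chain, and 11 genes of a list of 18 were in the table. Of these, 6 passed the filter, Clec4n only through the miRNA groups, and no direction of the list is read from them. Without Clec4n, 4 of 5 were higher in the miR-144 group and 5 of 5 in the miR-451a group. Of the 10661 genes that likewise averaged at least 1 FPKM in every group, 45.8% and 46.9% were higher. Klrb1c, at 0.319, 0.113 and 0.0721 FPKM on average in control, miR-144 and miR-451a TAMs, was below the filter and not tested. After median centring 3 of all 6 were higher in each, where 30.8% and 31.3% of all tested genes were higher. Since the 6 genes include Clec4n, no direction is read from that count either. Clec4n, which encodes Dectin-2 and signals through the Fcer1g product, averaged 0.665 FPKM in control TAMs, 12.4 with miR-144 and 12.3 with miR-451a. Clec4d averaged 36.5, 120 and 109 FPKM and Clec4e 1.34, 3.93 and 3.60 FPKM. Tyrobp, the related adaptor DAP12, rose by less, from 952 to 1112 and 1083 FPKM. Pira2, a paired immunoglobulin-like receptor, averaged 21, 25.3 and 25.7 FPKM, and Hcst, the adaptor DAP10, averaged 5.10, 5.91 and 6.58 FPKM, not called with miR-144.

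Downstream of the activating receptors, Src-family kinases phosphorylate the ITAM, Syk binds to it, and adaptors and lipid enzymes carry the signal on. Of 41 such genes 37 were tested. With miR-144, 20 were higher and 9 lower, and with miR-451a 19 were higher and 9 lower. Of all tested genes, 47.1% and 48.1% were higher and 20.1% and 20.3% lower in the respective comparison. After median centring the counts were 17 and 10 with miR-144 and 18 and 13 with miR-451a, beside 30.8% and 31.3% of all tested genes higher and 30.7% and 31.8% lower under the same scaling. The median log2 fold change was 0.20 and 0.33, against 0.13 and 0.14 over all tested genes. The Src-family kinases moved in opposite directions. Lyn averaged 20.2, 62.4 and 60.7 FPKM and was higher in every miRNA sample (limma adjusted p = 5.06e-14 and 6.28e-14). Src averaged 9.04, 3.07 and 3.06 FPKM and Fyn 15.3, 7.57 and 8.27 FPKM, both lower. Pik3ap1, an adaptor of phosphoinositide 3-kinase, averaged 41.6, 105 and 99.9 FPKM. Lat2, a membrane adaptor, averaged 73.0, 33.3 and 33.0 FPKM. Syk itself was named after its values were seen. It averaged 57.7, 60.7 and 59.8 FPKM and was not called (limma adjusted p = 0.181 and 0.328).

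All 21 genes of inhibitory signalling passed the filter, Ptpn22 and Pilra only through the miRNA groups. Of the 19 others, 14 were higher and 3 lower with miR-144, and 13 higher and 3 lower with miR-451a. Of all genes with at least 1 FPKM in every group, 45.8% and 46.9% were higher and 20.3% and 20.5% lower. The median log2 fold change of the 19 genes was 0.50 and 0.53, against 0.12 and 0.12 over those genes. After median centring, of all 21 genes, 13 were higher and 4 lower with miR-144 and 14 and 5 with miR-451a. Of all tested genes, 30.8% and 31.3% were higher and 30.7% and 31.8% lower under that scaling. Since the 21 genes include Ptpn22 and Pilra, no direction of the list is read from these counts. Ptpn22, a phosphatase that acts on Src and Syk family kinases, averaged 0.618, 4.33 and 4.80 FPKM. Pilra, a receptor with an inhibitory motif, averaged 0.119, 2.17 and 2.67 FPKM, and the adaptor gene Dok3 15.7, 39.5 and 40.1 FPKM. Cblb, a ubiquitin ligase, averaged 42.0, 12.8 and 12.3 FPKM, Dok2 12.5, 4.0 and 4.01 FPKM and Cbl 30.4, 26.1 and 26.1 FPKM, all lower. Inpp5d, the phosphatase recruited by the product of Fcgr2b, and Ptpn6 were named after their values were seen. Inpp5d averaged 23.2, 44.6 and 44.5 FPKM (limma adjusted p = 1.92e-12 and 1.88e-12) and Ptpn6 53.1, 124 and 123 FPKM, so that both rose while Fcgr2b fell.

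The engulfment of antibody-coated targets needs actin remodelling in the phagocytic cup. Of 40 tested genes of this machinery, 22 were higher and 10 lower with miR-144, and 22 higher and 12 lower with miR-451a, beside 47.1% and 48.1% of all tested genes higher and 20.1% and 20.3% lower. Median centring gave 20 and 12 with miR-144 and 17 and 13 with miR-451a, beside 30.8% and 31.3% higher and 30.7% and 31.8% lower over all tested genes. The median log2 fold change was 0.24 and 0.25, against 0.13 and 0.14 over all tested genes. Coro1a, an actin-binding protein of phagosomes, stood out with 14.2, 96.1 and 96.1 FPKM on average. Was, an activator of actin branching, averaged 27.8, 50.5 and 52.1 FPKM and Dock1, an exchange factor for Rac, 3.40, 6.25 and 6.58 FPKM. The myosin genes Myo5a and Myo1e were lower, at 51.0, 30.5 and 30.6 FPKM and 56.7, 37.1 and 34.5 FPKM, as was Limk1, a kinase that regulates cofilin, at 7.24, 4.26 and 4.71 FPKM.

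**Figure D5:**
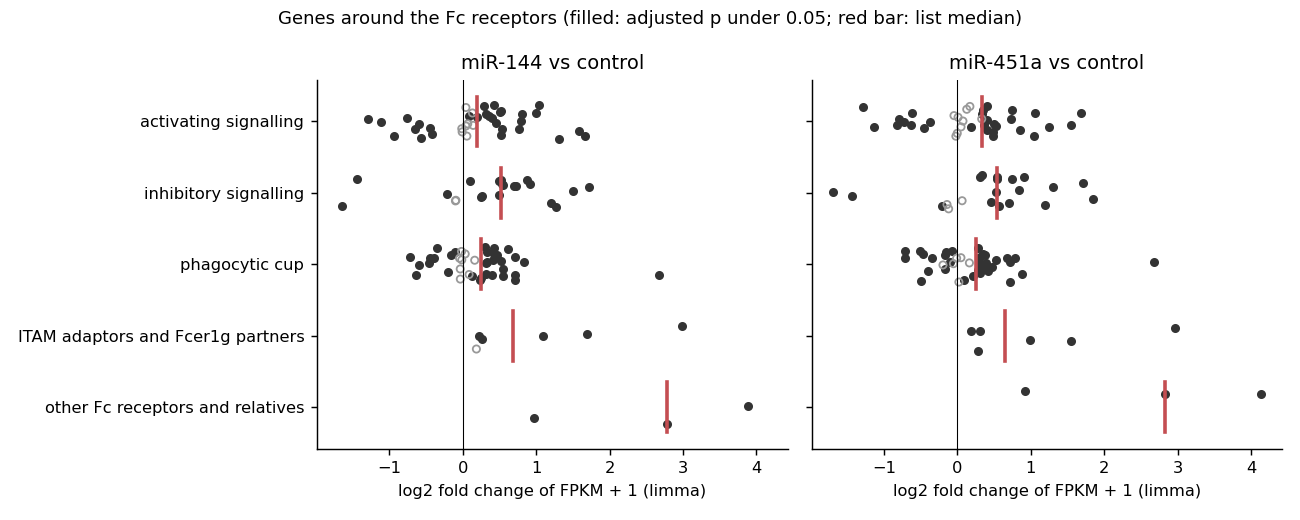
Log2 fold change of FPKM + 1 against control for each tested gene of 5 lists around the Fc receptors, for miR-144 (left) and miR-451a (right), with filled points at a limma adjusted p under 0.05 and a red bar at the list median. The signalling and phagocytic cup lists hold rises and falls. The 2 receptor and adaptor lists show few genes, because those under a mean of 1 FPKM, such as Fcrlb and Klrb1c, are not plotted. Fcrl1, Clec4n, Ptpn22 and Pilra are plotted, and enter the list medians, although they passed this limit only through the miRNA groups.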

How the data were processed

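RNA of sorted TAMs was sequenced by the authors on an Illumina HiSeq instrument, and the authors deposited FPKM per gene and sample in 1 table of 15 columns. The submitters' processing notes name FastQC 0.11.2, STAR and StringTie. The genome build and the settings are not given in the sources used here. FPKM is divided by depth and transcript length, so counts were not tested, and the depths given are inferred.

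Gene coordinates and transcripts are from GENCODE M21 (GRCm38), which holds 99.7% of the identifiers, and promoters and miRNAs are from RefSeq (GRCm38.p6). Neither is claimed as the authors' build. Promoter motifs are matches of letters on both strands.

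Groups, taken from the labels, were compared in limma 3.58.1 (R 4.3.3) on log2(FPKM + 1) with a mean-variance trend, all 15 samples together and p-values adjusted after Benjamini and Hochberg. The fit was tested on simulated data. The filter was a mean of at least 1 FPKM over all samples, and fold changes on this scale understate those of low genes. Sums were compared with exact permutation tests in Python 3.11.15 and scipy 1.17.1. Within groups, every pair of samples differed by more than sampling noise (lowest mean chi-square per gene 3.13 at the inferred depth).

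Named genes were the 6 receptors, the 3 largest rises and 3 largest falls of each signalling list among genes called in the same direction in both comparisons, genes of small lists with a mean of at least 1 FPKM and the highest below it, the highest gene of each marker list and the 3 genes with the nearest pattern to each receptor. Some genes of the lists are counted but not reported here by name. The receptors and lists were chosen with earlier results of these data known. Other settings tried were a smaller pseudocount (0.1), a filter at 5 FPKM or none, scaling by medians, by quantiles or to TPM, the replicate number as a block, limma without the trend, a fit of 2 groups at a time, and leaving out each sample.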

Additional observations from a re-analysis of the deposited data

Results flagged for a closer look

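In 153 groups of 5 values of the genes named, 12 held a sample whose gap to its nearest neighbour took up an unusually large part of the group's range, where chance alone gives 1 in 20, or 7.65. Of the receptors, Fcgr1 was high in 1 miR-451a sample (129 FPKM), Fcgr4 was high in 1 control sample (82.2 FPKM) and Fcgr2b was high in 1 control sample (166 FPKM). The phosphatase gene Ptpn22 was high in 1 miR-144 sample (4.73 FPKM) and low in 1 miR-451a sample (4.29 FPKM). Trim21 was low in 1 miR-144 sample (4.42 FPKM) and in 1 miR-451a sample (4.89 FPKM). Myo5a was high in 1 control sample (62.0 FPKM), as was Sdc1 (89.3 FPKM). B2m was high in 1 miR-451a sample (2402 FPKM), Igkc was high in 1 control sample (2.19 FPKM) and Xcr1 was low in 1 control sample (0.126 FPKM).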

How the results depend on the processing

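Fcgr1, Fcgr2b, Fcgr3, Fcer1g and Fcgrt kept their direction and their call against control under every alternative run. Fcgr4 with miR-144 reversed to -0.012 after median centring, and with miR-451a it was called on TPM (0.14, limma adjusted p = 0.00845). The replicate numbers were not taken to pair the samples, because the labels do not say so and not every pair correlated by over 0.1. Deviations of samples with the same number correlated by -0.01 (control and miR-144), 0.14 (control and miR-451a) and 0.10 (miR-144 and miR-451a) on average, with 1, 3 and 4 of 5 pairs over 0.1, and 0, 3 and 1 of 5 samples correlated best with their own number. With the number as a block 6 and 5 receptors were called and no call of a receptor changed, but the sign-flip test of the Fcgr2b and Fcgr3 sum (-0.73 and -0.79) gave an exact p = 0.0625, the smallest that the 32 patterns of 5 pairs allow. The log2 ratio of activating receptors to Fcgr2b differed from control by 1.75 and 1.56 without Fcgr1 and by 3.21 and 3.04 without Fcgr3. Median centring left 3 genes of the common chain list called in each comparison, no filter gave 5 called other Fc receptors in each, and quantile normalization left 0 called neonatal receptor partners. Leaving out genes under 1 FPKM in any group, an alternative chosen after seeing the data, left 1 immunoglobulin chain called in each comparison and moved no other list's count by over 1.5 times. Of these chains 1 was called with miR-144 without a filter, with a minimum of 5 FPKM, under median centring or quantile normalization and in the fit of only 2 groups, and 1 with miR-451a with a minimum of 5 FPKM and under both scalings, while 1 to 2 were called in either comparison when single samples were left out. The causes were not tested, apart from the smaller number of genes that a minimum of 5 FPKM leaves. The table gives no counts, so levels near 0 have no counting interval, and 5 samples a group limit small changes such as that of Fcgr4.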

Other observations

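Since the IgG receptors and the neonatal receptor bind IgG, 13 genes of immunoglobulin chains were looked at. Ighm is the constant region of IgM and not of IgG. It rose from 9.30 ± 1.15 FPKM (SD, n = 5) in the control group to 80.5 ± 6.85 (SD, n = 5) under miR-144 and 89.3 ± 7.68 (SD, n = 5) under miR-451a. The groups did not overlap (log2 fold changes 2.99 and 3.13, limma adjusted p = 9.90e-14 and 5.45e-14). The IgG heavy chains stayed near 0. Ighg2b averaged 0.126, 0.252 and 0.384 FPKM, Ighg1 and Ighg2c reached at most 0.122 and 0.168 FPKM in any sample, and Ighg3 was at 0. The light chain Igkc averaged 0.764, 1.49 and 1.59 FPKM with groups that overlapped, and since it passed the filter only through the miRNA groups, its test is not given. Markers of B cells are given above with Fcgr2b, and the part of such cells in the level of Ighm was not tested.

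For each receptor, the genes with the most similar pattern were found by the root mean square difference of centred log2(FPKM + 1) over the 15 samples, a description without a test. Nearest to Fcgr1 were Coro1a (0.0821), Ms4a6b (0.0889) and Klhl6 (0.0939). Nearest to Fcgr2b were Tceal9 (0.126), Rgl1 (0.128) and Csf2rb2 (0.146), with Tceal9 at 174, 38.9 and 40.4 FPKM on average in control, miR-144 and miR-451a TAMs. Fcgrt was nearest to Tmem8 (0.101), Dab2 (0.119) and Cd86 (0.119). Nearest to Fcer1g were Sephs2 (0.0453), Psip1 (0.0497) and Osbpl3 (0.0559). Fcgr4, which hardly varied, was nearest to Prpf38a (0.0501), Nme7 (0.0522) and Borcs8 (0.0533). The nearest to Fcgr3 were Gm10222 (0.149), the mitochondrial gene mt-Nd4l (0.150) and Gm12350 (0.154).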
